A study of Mus musculus with 10 samples.

Results

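Translation factors are the proteins that load ribosomes onto messenger RNA (initiation factors, eIF) and move them along it (elongation factors, eEF). The genes described here were all rows of the count table whose symbol began with Eif or Eef and a digit, without the eIF2 kinase genes (Eif2ak) and without the Y-linked Eif2s3y. The rule used symbols alone and no measured value, but it was set with earlier results of these data known. They numbered 67 of the 25239 genes in the table, and 62 of them had enough reads to be tested among 18419 genes. The rule also took in Eif2c5, whose symbol follows the older names of the Argonaute genes, and enzymes that modify or serve the elongation factors. Eif3j1, Eif3j2 and Eef1akmt4-ece2 had no read in any library. Eif3j1 and Eif3j2 share nearly all of their exon bases with each other (99.8% of those of Eif3j1). Eif4a3l1 and Eef1akmt3, with 10 and 17 reads over the 10 libraries, were under the filter on low counts and were not tested.

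RNA came from testis of C57BL/6 mice at postnatal days 4 (P4) and 7 (P7), either of WT genotype or of the genotype labelled Lsm7-flfl-stra8 (cKO). The Lsm7 protein belongs to the ring-shaped LSm complex, a partner of the U6 RNA of the spliceosome. Stra8 is a gene of germ cells that enter differentiation, and the label does not spell out the recombinase or say whether WT animals carried a floxed allele. There were 2 WT and 3 cKO libraries at each stage, with 28.8 to 41.8 M reads each. Both P7 WT libraries lay near the sampling noise of each other, with a chi-square of 1.98 per degree of freedom where other pairs of a group had 22.2 to 115.8, and they were counted as 1 sample. Nothing says that the samples came from separate animals or litters, so the p-values speak only for the scatter among the samples at hand, part of which may be technical.

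In the cell, eIF1, eIF1A, eIF2, eIF3 and eIF5 form a complex on the small ribosomal subunit with the initiator transfer RNA. eIF4F, made of the cap-binding eIF4E, the scaffold eIF4G and the helicase eIF4A, brings that complex to the capped end of the messenger, and eIF4E-binding proteins hold eIF4E back. eEF1A then delivers aminoacyl transfer RNAs, the eEF1B subunits recharge it with GTP, and eEF2 moves the ribosome by 1 codon at a time. Many of these factors are encoded, like the ribosomal proteins, by messengers that begin with a terminal oligopyrimidine (TOP) tract, through which mTOR signalling adjusts their translation. In the testis, germ cells switch on tissue-restricted relatives of some factors as spermatogenesis proceeds.

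The start of the transcript is shown for the factors known as TOP messengers, since 5 of the 10 rose at P4. Of these 10 factors, Eef1d, Eef1g, Eif3e and Eif3h had no entry matched by symbol, and the other 6 follow. Each line gives 30 bases of the sense strand from RefSeq (GRCm38.p6), 5 before the annotated start and 25 from it on, with the longest unbroken run of C or T in capitals.
Eef1a1: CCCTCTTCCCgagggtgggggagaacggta
Eef2: cgggcgttgacgtcagcggTCTCTTCCgcc
Eif3f: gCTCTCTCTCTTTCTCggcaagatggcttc
Eef1b2: gTTCCgccggaagtagccgaggccttgcgt
Eif3a: gcggcggcgCTgccgccgcgagggaatcac
Eif4b: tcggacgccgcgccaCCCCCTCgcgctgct

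These windows lie at chr9:78481700-78481729 (minus strand), chr10:81176626-81176655 (plus), chr7:108934410-108934439 (plus), chr1:63176826-63176855 (plus), chr19:60790669-60790698 (minus) and chr15:102073768-102073797 (plus). Eef1a1, Eef2 and Eif3f hold a run of at least 8 pyrimidines on the sense strand, the only strand searched. Such a run was found in 3 of the 6 matched TOP factors, in 12 of the 65 windows of all translation factors with an entry (18.46%) and in 3392 of 32851 RefSeq windows of the same length (10.33%). Some genes have several windows, and counted by gene the run was in 11 of 51 translation factors.

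A match describes only these letters. The run in Eef2 begins at base 15, counted from 1 at the annotated start, and not at the start itself. The runs in Eef1a1 and Eif3f begin 5 and 4 bases before the annotated start. That of Eef1a1 begins at the edge of the window, so its full length is not shown.

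Several facts of the series touch every result. Lsm7 had 36.2 and 25.7 counts per 1000000 reads (CPM, scaled with TMM factors) in WT at P4, against 44.9, 50.5 and 43.6 in the P4 libraries labelled cKO. Its P7 levels were 33.3 CPM for WT against 45.2, 26.0 and 20.3 for those labelled cKO. The level therefore did not check the labels, and the table does not separate the exons of the gene. The labels name germ cell as the cell type, yet the summed CPM of 11 Sertoli cell markers (2972 to 5786 at P4) exceeded that of 11 germ cell markers (314 to 489) in every P4 sample, and 4 of 5 erythroid markers had no read. In bulk RNA, fewer cells of a type and less RNA per cell cannot be told apart. P7 cKO library 1 stood apart from the other P7 cKO libraries (chi-square per degree of freedom 110.5 and 115.8, against 22.2 for the remaining pair). Fold changes also followed base composition: the median log2 fold change of all genes at P7 ran from -1.02 in the bin of lowest GC content (median 38.2% GC) to 1.05 in the highest (61.4%), and at P4 from -0.26 to 0.33. The main calls are therefore given also after correction by offsets for length and GC content, estimated in each sample. Scaling mattered too: with library totals in place of TMM factors the all-gene median moved to -0.16 at P4 and to 0.19 at P7.

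The translation factors took 1.51% and 1.76% of reads in the P4 WT libraries and 2.06%, 2.12% and 2.25% in the P4 cKO libraries, with no overlap. At P7 they took 1.62% and 1.63% in WT and 1.57%, 2.00% and 1.89% in cKO, and there library 1 lay under both WT libraries. Eef1a1, which encodes the ubiquitous eEF1A, was the most abundant by length in each group, with a mean level of 2830 CPM per kilobase in P4 WT, 4809 in P4 cKO, 2382 in P7 WT and 2729 in P7 cKO. The next in P4 WT were the helicase gene Eif4a1 at 445 CPM per kilobase, the start-codon selection factor gene Eif1 at 292, and Eef2 at 269.9. Eif4e1b (0.129 CPM per kilobase), an oocyte-type eIF4E, Eef1a2 (0.198), the eEF1A of muscle and neurons, and Eif2c5 (0.199) were the lowest of those tested in P4 WT.

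At P4, 12 of 62 translation factors rose in cKO (19.4%, against 4.84% of all genes tested) and 0 fell (against 4.13%; 8.96% of all genes were called in either direction). The genes that rose encode mainly eEF1B and eEF2 and several subunits of eIF3, with log2 fold changes of 0.65 to 1.48. The median log2 fold change of the 62 factors was 0.47, against 0.00 for all genes, and 50 of 62 were above 0. In 35 factors every cKO sample lay above both WT samples (24.1% of all genes did so), in 6 every cKO sample lay below (25.6%), and in 21 the groups overlapped. For the count of 0 lower in the edgeR test, 4 factors had an unadjusted p under 0.05 in that direction, and DESeq2 called 2, Eif4g3 and Eif5b. The counts depended on single libraries: the 12 became 0 when the first P4 WT library, or P4 cKO library 2 or 3, was left out, 4 without P4 WT library 2, 2 without P4 cKO library 1, 6 without P7 cKO library 3 and 26 (12.2% of all genes) without P7 cKO library 1. With offsets for length and GC content 4 remained, Eef1d, Eef2k, Eif4e2 and Eif4g1 (1.18% of all genes were higher and 1.44% lower), while the median of the factors was 0.46. With library totals 4 rose and 2 fell, and the median was 0.31. Shares of all genes are not given for this setting or for left-out libraries other than P7 cKO library 1.

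**Figure D1:**
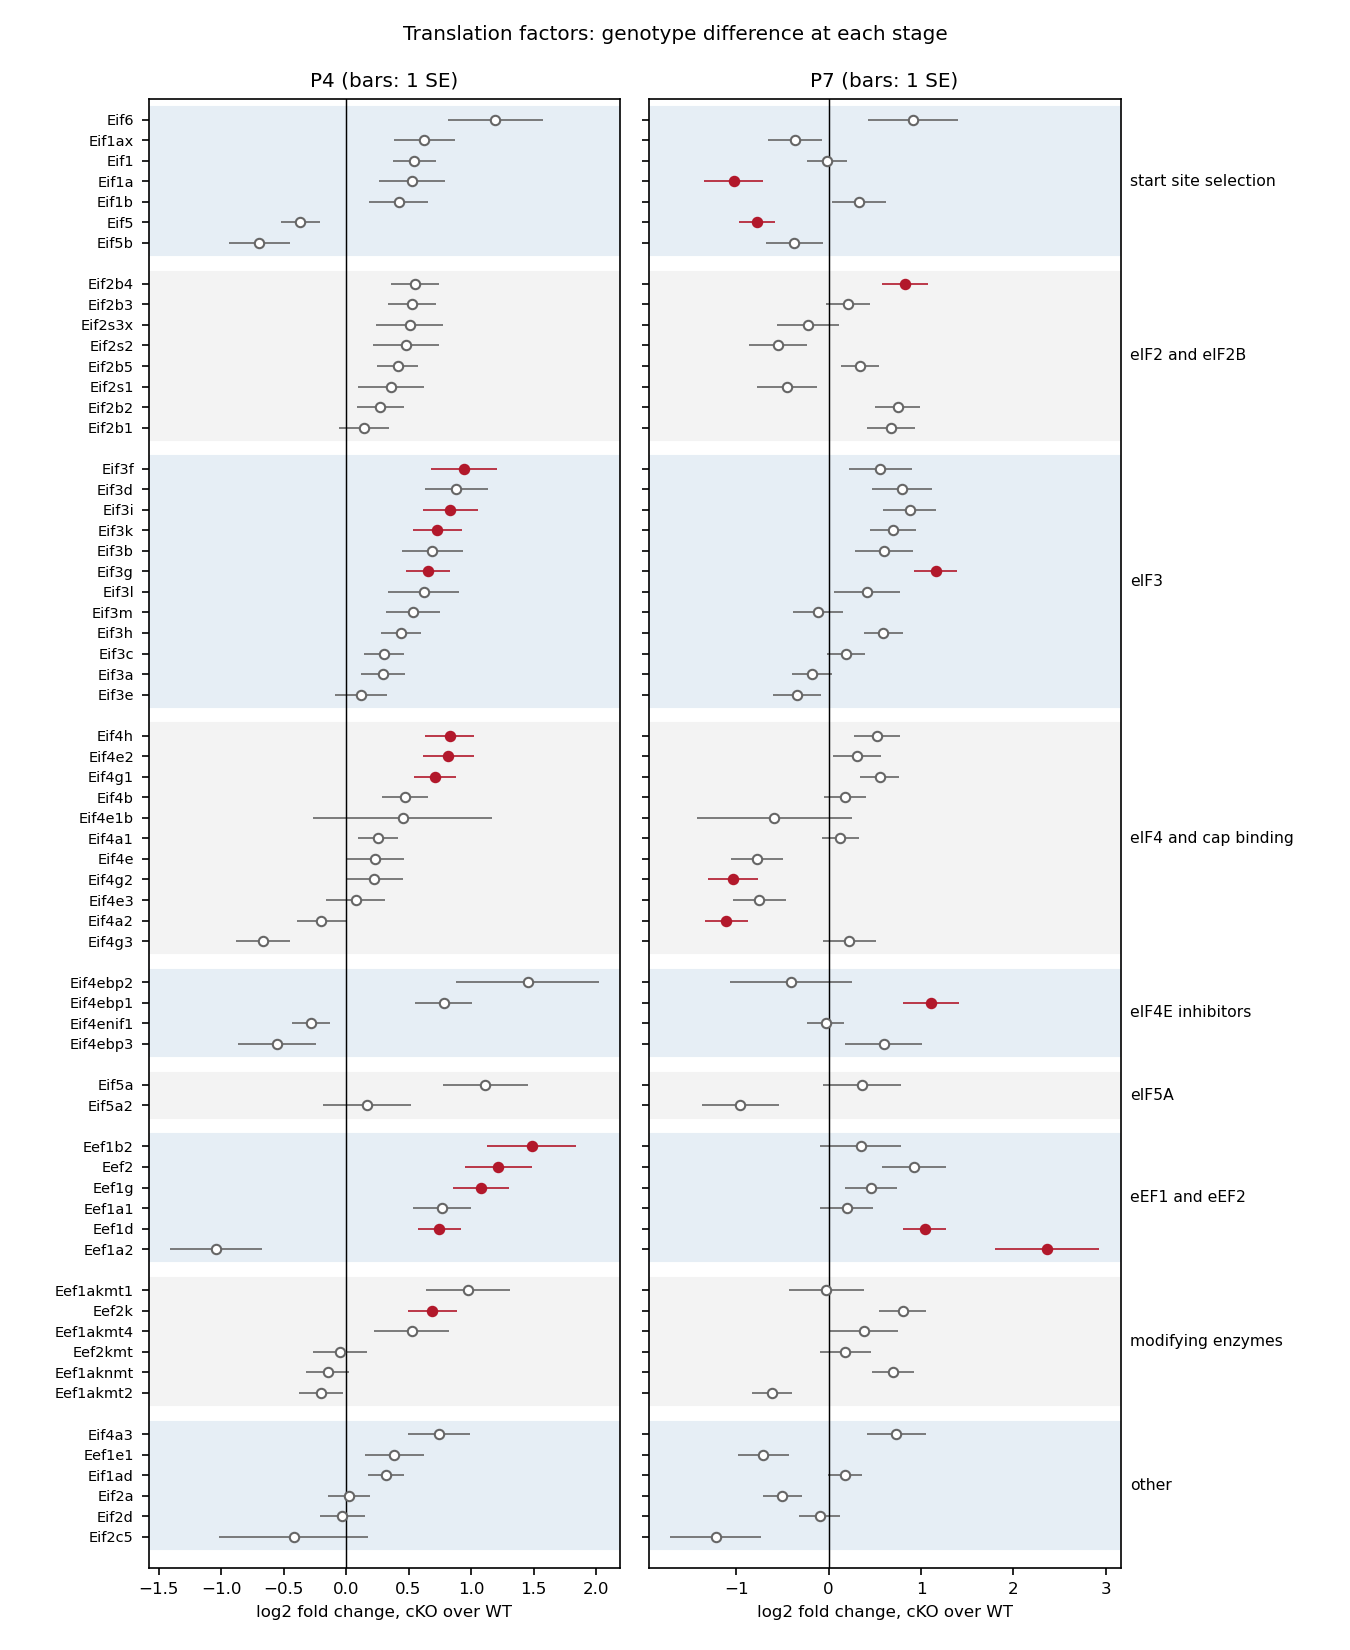
Log2 fold change of cKO over WT for each of the 62 tested translation factors at P4 (left) and P7 (right), grouped by role, with bars of 1 standard error (SE) and filled points for an adjusted p under 0.05 in edgeR. At P4 all filled points lie above 0; at P7 there are 5 above and 4 below, the lowest of them at -1.11.

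Of the 6 genes for eEF1 and eEF2, 4 rose at P4 and 0 fell, with a median log2 fold change of 0.92. Together these genes took 0.591% and 0.756% of reads in the P4 WT libraries and 1.05%, 1.06% and 1.18% in the P4 cKO libraries. Eef2, the translocase (chromosome 10, 81176631 to 81182509, GRCm38), had 703 and 970 CPM in WT against 1946, 1749 and 2136 in cKO. Every cKO sample lay well above both WT samples, and the log2 fold change was 1.22 with an SE of 0.27 (adjusted p = 0.0251, edgeR). Eef1b2 (chromosome 1, 63176831 to 63180486), the nucleotide exchange subunit eEF1B alpha, had 101 and 223 CPM in WT against 367, 446 and 545 in cKO. The WT samples were far apart, and both were below all cKO samples (log2 fold change 1.48, SE 0.36, adjusted p = 0.0328 in edgeR). Eef1g (chromosome 19, 8967041 to 8978180), the structural subunit eEF1B gamma, had 251 and 316 CPM in WT against 574, 545 and 679 in cKO. Its groups did not overlap either, and its log2 fold change was 1.08 with an SE of 0.23 (adjusted p = 0.0219, edgeR). Eef1d (chromosome 15, 75894796 to 75909556), the second exchange subunit, had 137 and 144 CPM in WT against 237, 250 and 220 in cKO (log2 fold change 0.75, SE 0.18, adjusted p = 0.0294).

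The eEF1A genes lay in opposite directions, neither past the threshold. Eef1a1 had 4439 and 5685 CPM in P4 WT against 7909, 8460 and 9441 in P4 cKO. The groups did not overlap, yet the log2 fold change of 0.77 (SE 0.23) missed the threshold in edgeR (adjusted p = 0.0592, 0.0097 to 0.386 over 20 alternatives). Eef1a2 had 1.46 and 1.71 CPM in WT against 0.868, 0.753 and 0.685 in cKO, all cKO samples being lower, with a log2 fold change of -1.04 (SE 0.37, adjusted p = 0.0927 in edgeR).

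All 12 tested eIF3 genes had a log2 fold change above 0 at P4, and 4 of them passed the test. eIF3 is the large scaffold that holds the small ribosomal subunit ready for the messenger. The median of the subunits was 0.64, and Eif3e, the lowest at 0.12, turned to -0.05 with library totals and to -0.06 with offsets for length. Eif3f (chromosome 7, 108934415 to 108941942) had 168 and 207 CPM in WT against 358, 354 and 370 in cKO. The cKO samples lay close together and far above WT, with a log2 fold change of 0.94 (SE 0.27, adjusted p = 0.0496 in edgeR). Eif3i (chromosome 4, 129591974 to 129600648) had 62.6 and 66.6 CPM in WT against 101, 119 and 125 in cKO, a log2 fold change of 0.83 (SE 0.22, adjusted p = 0.0416). Eif3k (chromosome 7, 28971372 to 28981888) had 79.7 and 108 CPM in WT against 146, 158 and 162 in cKO (log2 fold change 0.73, SE 0.19, adjusted p = 0.0411). Eif3g (chromosome 9, 20894349 to 20898590), an RNA-binding subunit, had 127 and 122 CPM in WT against 205, 208 and 175 in cKO (log2 fold change 0.65, SE 0.17, adjusted p = 0.0411). In none of these 4 did a WT sample reach a cKO sample. The other 8 subunits ran from 0.12 for Eif3e to 0.88 for Eif3d, and Eif3h stood at 0.44 (SE 0.16, adjusted p = 0.0994).

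The cap-binding and scanning genes were mixed at P4, with 3 of 11 higher, 0 lower and a median log2 fold change of 0.26. Eif4g1, a scaffold of eIF4F (chromosome 16, 20672727 to 20692883), had 212 and 206 CPM in WT against 330, 319 and 377 in cKO. Its log2 fold change was 0.71 (SE 0.17, adjusted p = 0.0294 in edgeR), and no sample of one genotype reached the other. Eif4h (chromosome 5, 134619872 to 134639409), a stimulator of the eIF4A helicase, had 180 and 215 CPM in WT against 299, 340 and 414 in cKO (log2 fold change 0.83, SE 0.20, adjusted p = 0.0300). Eif4e2, the cap-binding relative that represses translation (chromosome 1, 87213911 to 87240488), had 46.8 and 59.1 CPM in WT against 86.1, 90.6 and 103 in cKO (log2 fold change 0.82, SE 0.20, adjusted p = 0.0350). Both stimulators and a repressor of cap-dependent loading were thus among the genes that rose. The cap-binding gene Eif4e itself had 92.5 and 138 CPM in WT against 106, 152 and 148 in cKO, with overlap (log2 fold change 0.23, SE 0.23). Eif4a1, the main helicase, had 809 and 867 CPM against 1010, 1014 and 975 (log2 fold change 0.26, SE 0.16), all cKO samples being higher without a call. Eif4b stood at 0.47 (SE 0.18), Eif4e1b, with under 0.5 CPM in every sample, at 0.45 (SE 0.71), and Eif4g2 at 0.23 (SE 0.23). Eif4a2 stood at -0.20 (SE 0.19). Eif4g3, another scaffold and in P4 WT the more abundant, had 825 and 587 CPM in WT against 487, 502 and 346 in cKO. All cKO samples were lower, with a log2 fold change of -0.67 (SE 0.22, adjusted p = 0.0763 in edgeR).

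**Figure D2:**
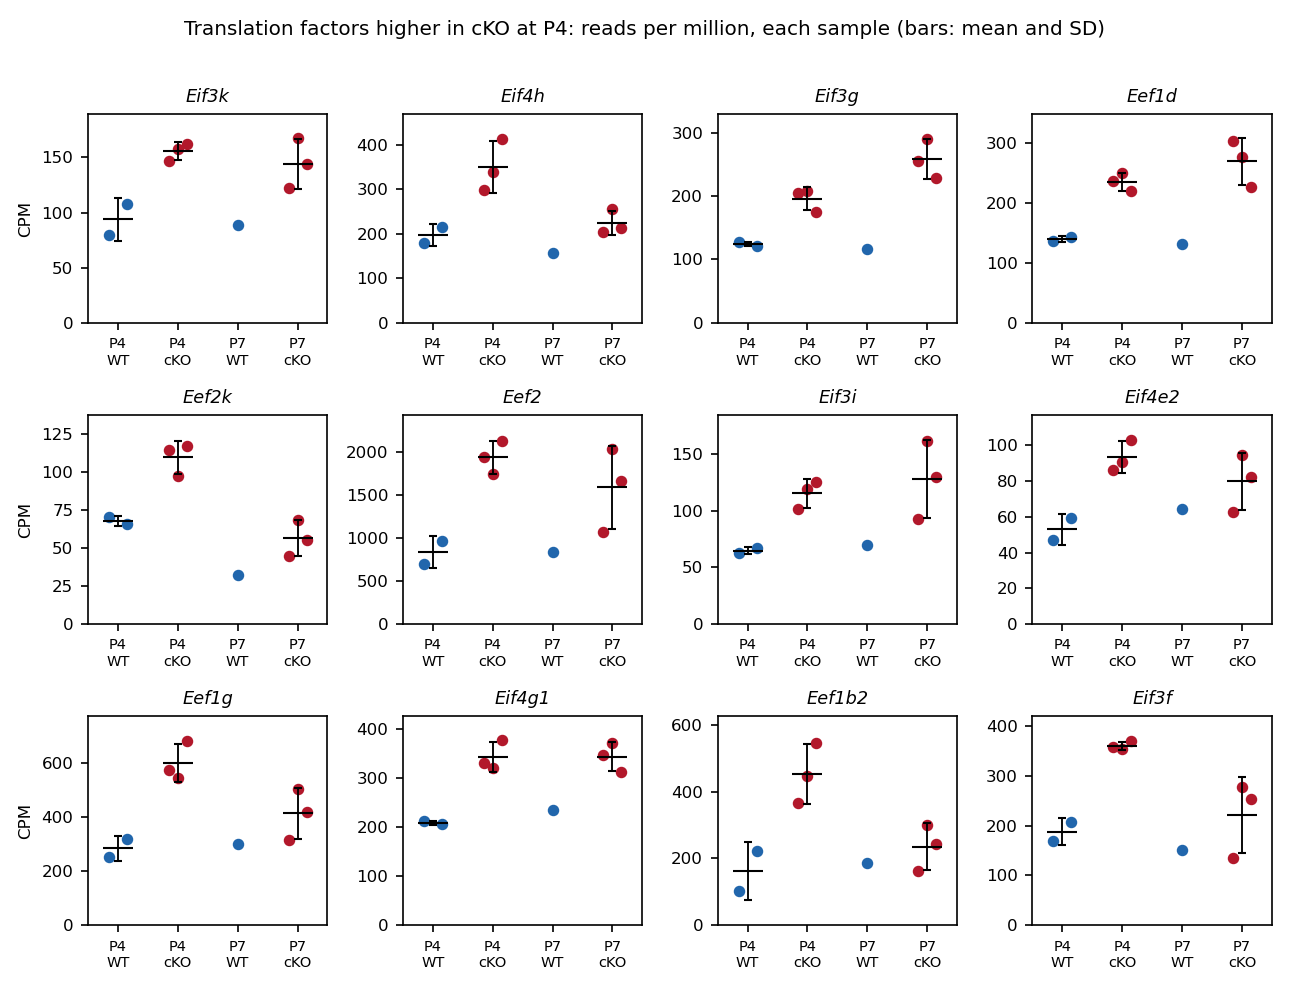
CPM of the 12 translation factors higher in cKO at P4, 1 panel per gene and 1 point per sample (blue WT, red cKO), with the mean and SD as black bars where a group has more than 1 sample. In each panel the P4 cKO points lie above the P4 WT points, as for Eef2 at 1749 CPM or more against 970 or less; the 1 P7 WT point stands for the summed libraries.

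Among the remaining roles at P4, only Eef2k passed the test. Eef2k encodes the kinase that inactivates eEF2 (chromosome 7, 120842831 to 120907219), and it had 70.3 and 65.6 CPM in WT against 115, 97.3 and 117 in cKO. Its log2 fold change was 0.69 (SE 0.20, adjusted p = 0.0497 in edgeR), close to the threshold and in the same direction as that of its substrate's gene. None of the 8 genes for eIF2 and eIF2B passed, although all 8 had log2 fold changes above 0 (0.14 to 0.55, median 0.45); Eif2b1, the lowest, turned to -0.02 with library totals. Eif2s1, the subunit phosphorylated in stress, stood at 0.36 (SE 0.26) and Eif2s3x at 0.51 (SE 0.27). Of 7 genes for start-site selection and subunit joining none passed, with a range from -0.69 for Eif5b to 1.19 for Eif6 and with Eif1 at 0.54 (SE 0.17, adjusted p = 0.0672). The 4 eIF4E inhibitor genes ran from -0.55 to 1.45, with Eif4ebp1 at 0.78 (SE 0.23, adjusted p = 0.0540), and none passed. Eif5a, whose product carries hypusine and helps the ribosome over difficult peptide bonds, had 128 and 209 CPM in WT against 342, 330 and 421 in cKO, without overlap, and stood at 1.11 (SE 0.34, adjusted p = 0.0626), and Eif5a2 at 0.17 (SE 0.35).

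The 10 TOP factors, 6 of which are shown by sequence above, had 5 members higher at P4 (3 of the 6 shown) and a median log2 fold change of 0.76, against 7 of 52 and 0.44 for the other translation factors. These medians were 0.76 and 0.35 with offsets for length and GC content, and 1 and 3 members then passed. The 83 tested ribosomal protein genes, most of them also TOP messengers, had a median of 0.83 (0.54 with the offsets). Factors under 2000 bases of exon length had a median of 0.64 (6 of 26 higher) and longer ones 0.34 (6 of 36 higher), while the medians of all genes in these classes were 0.12 and -0.05. Markers of other cells moved with the P4 difference. Sertoli markers summed to 2972 and 4029 CPM in WT and to 5777, 5136 and 5786 in cKO (4 of 11 genes called higher), and germ cell markers to 397 and 489 in WT and 342, 314 and 317 in cKO (3 of 11 called lower). Macrophage markers summed to 58.7 and 62.4 CPM in WT and to 73.8, 109.8 and 128.5 in cKO (3 of 7 called higher), and peritubular and stromal markers to 4712 and 5500 in WT and 5431 to 7262 in cKO (3 of 9 called higher). Leydig markers overlapped in sum (1525 to 1798 CPM in all 5 samples, 3 of 9 called higher). Endothelial markers summed to 272 and 280 CPM in WT and to 315, 341 and 337 in cKO, without overlap, and none of 7 was called. The part of cell makeup in the rise of the translation factors was not tested.

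At P7, 5 of 62 translation factors rose in cKO (8.06%, against 7.26% of all genes) and 4 fell (6.45%, against 9.72%), shares close to or under the background (17.0% of all genes were called in either direction). Those that rose encode the eIF3 subunit Eif3g, eEF1 subunits, an eIF2B subunit and the eIF4E inhibitor Eif4ebp1, and those that fell encode Eif5, Eif1a and eIF4 members. The median log2 fold change was 0.20, against 0.08 for all genes, and all cKO samples lay above WT in 28 factors (36.2% of all genes), below it in 18 (34.6%) and on both sides in 16. This comparison rests on 1 WT sample, whose spread was taken to be that of the other groups. For the other settings, shares of all genes are given only with the offsets and without P7 cKO library 1. None of the 9 calls passed with offsets for length and GC content (0 and 0.0109% of all genes called higher and lower), when 9 factors had an unadjusted p under 0.05 upwards and 1 downwards. With library totals 11 rose and 3 fell. When only the libraries of P7 were fitted, none passed either (11 and 10 at an unadjusted p under 0.05). Without P7 cKO library 1, 16 rose (12.9% of all genes) and 6 fell (13.9%), and without P7 cKO library 2 the counts were 2 and 1.

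Eif3g and Eef1d were the factors called at both stages, 2 of the 12 that rose at P4 (16.7%) and 2 of the 5 that rose at P7 (40%). The share of all genes called at both stages is not given, and the overlap depends on the threshold. The other factors that rose at P4 were all above 0 at P7, from 0.31 for Eif4e2 to 0.92 for Eef2. Their adjusted p at P7 ran from 0.0517 for Eef2k to 0.615 for Eef1b2 in edgeR. Eif3g had 116 CPM in P7 WT against 256, 291 and 228 in cKO, with a log2 fold change of 1.16 (SE 0.23, adjusted p = 0.0110 in edgeR). All cKO samples lay far above WT, and with the offsets the log2 fold change was 0.33. Eef1d had 131 CPM in WT against 303, 277 and 227 in cKO (log2 fold change 1.04, SE 0.23, adjusted p = 0.0153), and it was 1.21 with the offsets. In both genes P7 cKO library 1 lay among the other cKO libraries or above them.

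Eif4ebp1, the mTOR-regulated inhibitor of eIF4E (chromosome 8, 27260327 to 27275656), had 31.7 CPM in P7 WT against 47.0, 83.7 and 74.8 in cKO. Library 1 stood nearest to WT, and the log2 fold change was 1.11 (SE 0.30, adjusted p = 0.0300 in edgeR), or 1.32 without that library. Eif2b4, a subunit of the exchange factor that recharges eIF2 (chromosome 5, 31187558 to 31193139), had 24.1 CPM in WT against 40.6, 49.6 and 38.0 in cKO (log2 fold change 0.82, SE 0.25, adjusted p = 0.0426); with the offsets it was 0.13. Eef1a2 (chromosome 2, 181141758 to 181157015) had 0.208 CPM in WT against 1.03, 1.16 and 1.07 in cKO. Its log2 fold change of 2.37 (SE 0.56, adjusted p = 0.0189 in edgeR) rests on 10 and 2 reads in the WT libraries and 34, 46 and 44 in the cKO libraries. In each library 67.8% to 80% of the gene counts from 1 to 49 were even, so the reads may not be independent of each other.

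The 4 factors that fell at P7 were all of low GC content (40.0% to 43.2%). Eif4a2, the second eIF4A helicase (chromosome 16, 23107468 to 23114132), had 1201 CPM in WT against 684, 452 and 535 in cKO, with a log2 fold change of -1.11 (SE 0.23, adjusted p = 0.0130 in edgeR). It shares 5.0% of its exon bases with Rfc4 on the opposite strand. Eif4g2, an eIF4G relative that does not bind eIF4E (chromosome 7, 111067985 to 111083030), had 1733 CPM in WT against 688, 844 and 1005 in cKO (log2 fold change -1.04, SE 0.27, adjusted p = 0.0272). Eif5, the GTPase activator of eIF2 (chromosome 12, 111538101 to 111546753), had 637 CPM in WT against 397, 340 and 377 in cKO (log2 fold change -0.78, SE 0.19, adjusted p = 0.0220). In these 3 genes each cKO sample lay far below WT. Library 1 held the highest cKO value for Eif4a2 and Eif5 and the lowest for Eif4g2. Eif1a, which scans for the start codon with eIF1, had 106 CPM in WT against 40.2, 56.6 and 59.0 in cKO (log2 fold change -1.03, SE 0.32, adjusted p = 0.0452). With offsets for length and GC content the log2 fold changes were -0.32 for Eif4a2, -0.30 for Eif4g2, -0.04 for Eif5 and -0.21 for Eif1a.

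**Figure D3:**
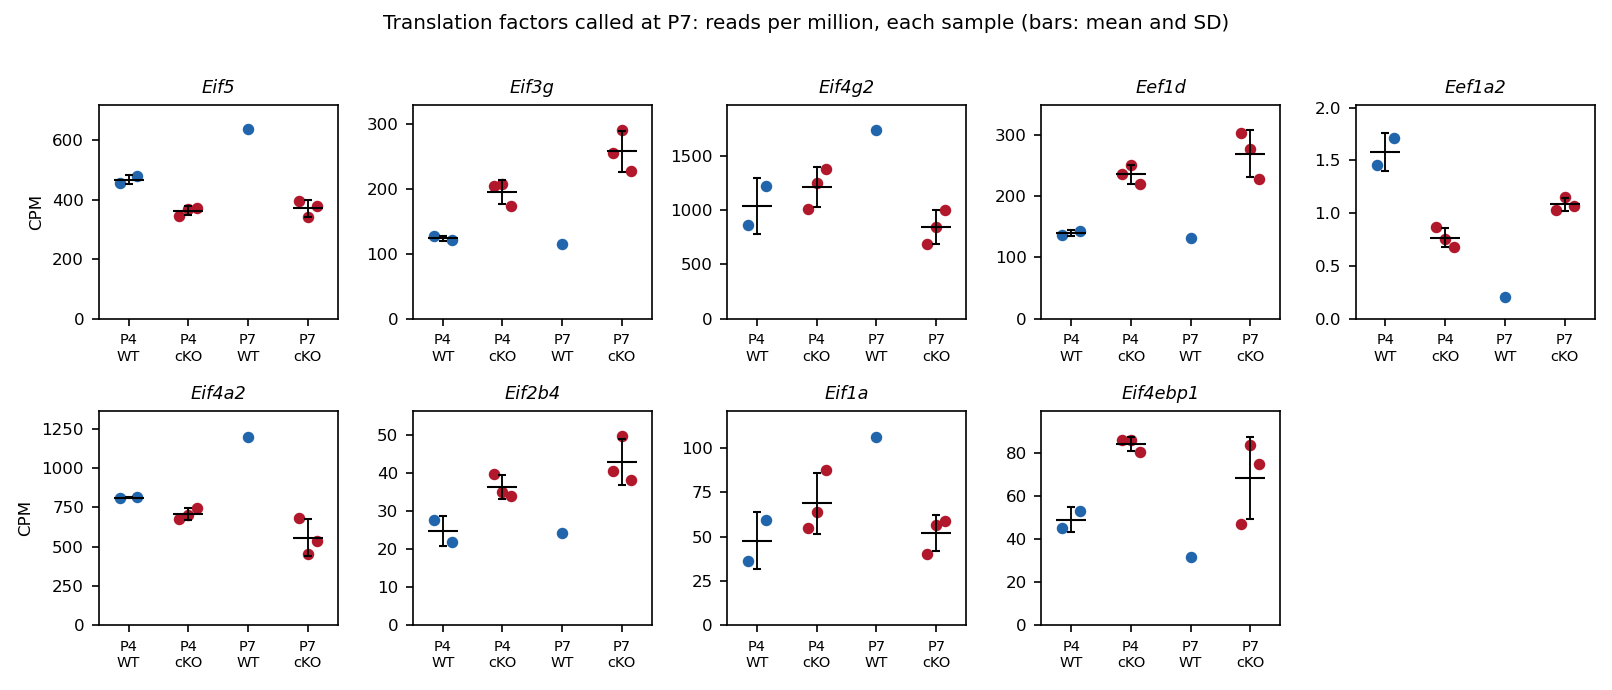
CPM of the 9 translation factors called at P7, 1 panel per gene and 1 point per sample (blue WT, red cKO), with the mean and SD as black bars where a group has more than 1 sample. The P7 WT point, the sum of its libraries, lies above all P7 cKO points for Eif5, Eif4g2, Eif4a2 and Eif1a and below them for the other 5 genes; for Eef1a2 the WT point is at 0.208 CPM.

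Across the 62 factors the P7 log2 fold change rose with GC content (Spearman's rho 0.71 across genes, against 0.65 across 18201 genes), and at P4 the rho was 0.30 (0.22 across all genes). Genes are not independent replicates, and all of them share the same libraries. With exon length the rho was -0.24 at P7 and -0.30 at P4 across the factors. The factors had a median GC content of 49.98%, close to the 49.8% of all genes tested. The 12 factors called at P4 lay above the all-gene median at their GC content, as Eef1b2 at 46.2% GC and Eef2 at 57.0%. That place follows from their being called: their smallest log2 fold change was 0.65, and the highest bin median at P4 was 0.33. At P7 Eif5, Eif2b4 and Eif1a lay near the all-gene course, and Eif4a2 somewhat below it. Eif4g2 (43.2% GC) lay further below it. Eef1d (48.0% GC), Eif4ebp1 (48.2%), Eif3g (55.8%) and Eef1a2 (60.6%) stood well above it.

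**Figure D4:**
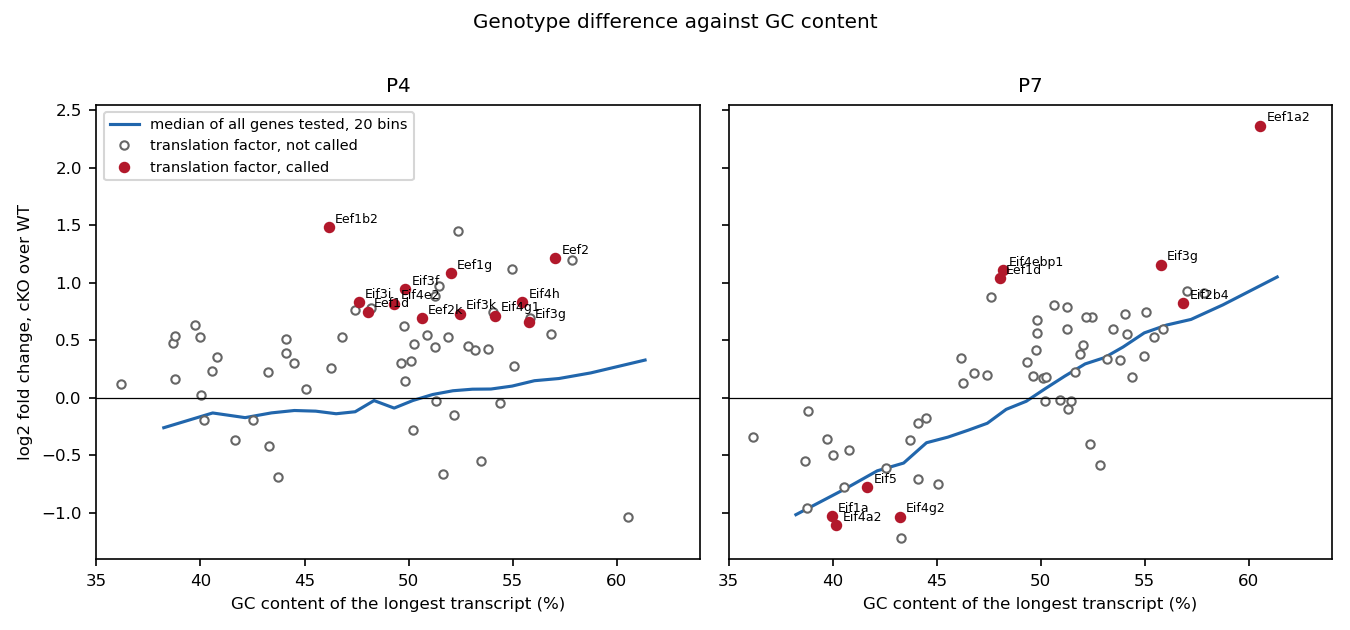
Log2 fold change of cKO over WT against the GC content of the longest transcript, for the tested translation factors (open points; filled and named where the adjusted p was under 0.05) and for the median of all genes in 20 bins of GC content (line), at P4 and P7. The line climbs from -1.02 to 1.05 at P7 and from -0.26 to 0.33 at P4, and most P4 points lie above it.

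By role at P7, the 6 eEF1 and eEF2 genes had a median log2 fold change of 0.69 with 2 higher, and the 12 eIF3 genes a median of 0.58 with 1 higher, 9 of them above 0. Eef2 had 839 CPM in WT against 1073, 2036 and 1669 in cKO. Library 1 held the lowest cKO value, and the log2 fold change of 0.92 (SE 0.35, adjusted p = 0.0866 in edgeR) passed without it, with an adjusted p of 0.0072. Eef1a1 had 4262 CPM in WT against 3666, 5566 and 5412 in cKO, with library 1 below WT and the others above it (log2 fold change 0.20, SE 0.29). The subunits Eif3f, Eif3h and Eif3e stood at 0.56 (SE 0.34), 0.59 (SE 0.21) and -0.34 (SE 0.26), none past the threshold, and Eif3e turned to 0.51 with the offsets for length and GC content. In the eIF4 group 0 rose and 2 fell; Eif4e stood at -0.78 (SE 0.28, adjusted p = 0.0767), which turned to 0.11 with those offsets, Eif4g1 at 0.55 (SE 0.22), Eif4a1 at 0.13 (SE 0.20), Eif4b at 0.18 (SE 0.23), Eif4g3 at 0.22 (SE 0.28) and Eif4e1b at -0.59 (SE 0.84). Of the 8 eIF2 and eIF2B genes 1 rose, with Eif2s1 at -0.45 (SE 0.32) and Eif2s3x at -0.22 (SE 0.33). The 5 subunits of eIF2B were all above 0, from 0.21 for Eif2b3 to 0.82 for Eif2b4, and the 3 of eIF2 all below 0, but with the offsets all 8 were above 0. Eif1 was at -0.02 (SE 0.21), Eif5a at 0.36 (SE 0.42) and Eif5a2 at -0.96 (SE 0.41, adjusted p = 0.135), and with the offsets Eif5a turned to -0.18 and Eif5a2 to 0.05. None of the 6 modifying enzymes passed. The TOP factors had 1 of 10 higher and a median of 0.40, and the ribosomal protein genes a median of 0.85 (0.35 with the offsets). Marker sums at P7 were 2249 CPM in WT and 1932, 1705 and 1564 in cKO for germ cells, and 5071 in WT and 4469, 5151 and 5168 in cKO for Sertoli cells. Peritubular and stromal markers summed to 3646 CPM in WT and 2653, 3337 and 3713 in cKO, Leydig markers to 927 in WT and 991, 972 and 1097 in cKO, and endothelial and macrophage sums overlapped. Of the erythroid list only Alas2 had reads, at 14.9 CPM in WT and 2.19, 2.59 and 2.92 in cKO. The part of these differences in the P7 results was not tested.

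From P4 to P7 in WT, 5 factors rose (11.8% of all genes did so) and 3 fell (9.97%, and 21.8% in either direction). Shares of all genes are not given for the counts with libraries left out. Eif2c5 (chromosome X, 140776199 to 140796944) went from 0.331 and 0.177 CPM at P4 to 5.88 CPM at P7, with a log2 fold change of 4.53 (SE 0.61, adjusted p = 0.0012 in edgeR), from 10 and 6 reads at P4 to 151 and 188 at P7. Eif5a2, the less widely expressed eIF5A gene (chromosome 3, 28781277 to 28798846), went from 12.3 and 32.9 CPM to 96.2 CPM (log2 fold change 2.09, SE 0.45, adjusted p = 0.0099). The P7 value lay well above both P4 samples in each gene. Eef1e1, a scaffold protein of the aminoacyl-tRNA synthetase complex, went from 20.8 and 31.4 CPM to 64.7 CPM (log2 fold change 1.31, SE 0.30, adjusted p = 0.0120), and the other 2 that rose were Eif1a (1.15) and Eif2b3 (0.75). Eef1a2 fell from 1.46 and 1.71 CPM to 0.208 CPM (log2 fold change -2.91, SE 0.59, adjusted p = 0.0070 in edgeR). Eif4g3 (chromosome 4, 137993455 to 138207086) fell from 825 and 587 CPM to 279 CPM (log2 fold change -1.34, SE 0.32, adjusted p = 0.0141), and Eef2k from 70.3 and 65.6 CPM to 32.3 CPM (log2 fold change -1.07, SE 0.27, adjusted p = 0.0183). The counts of 5 and 3 became 2 and 1 without P4 WT library 1, 8 and 4 without P4 WT library 2, 10 and 6 without P7 cKO library 1, and 3 and 3 without P4 cKO library 2.

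From P4 to P7 in cKO, 5 factors rose (14.5% of all genes) and 8 fell (14.7%, and 29.2% in either direction). Shares of all genes are not given for the counts under other settings or with libraries left out. With library totals the split was 8 higher and 4 lower, and the median of the factors turned from -0.15 to 0.04. Eif2c5 rose here too, from 0.347, 0.137 and 0.079 CPM to 2.52, 2.54 and 2.48 CPM, a log2 fold change of 3.72 (SE 0.47, adjusted p = 0.00024 in edgeR). The 3 P7 cKO samples lay close together, well above those of P4 and below the P7 WT value. Eef1aknmt, a methyltransferase of eEF1A (chromosome 1, 162533672 to 162548345), rose from 18.5, 18.9 and 19.97 CPM to 45.0, 45.4 and 42.8 CPM (log2 fold change 1.22, SE 0.16, adjusted p = 0.00028). Eif5a2 rose from 20.02, 25.2 and 30.8 CPM to 39.6, 52.4 and 56.5 CPM (log2 fold change 0.97, SE 0.31, adjusted p = 0.0397), and Eif5b (0.80) and Eef2kmt (0.64) rose as well; Eif5b shares 15.9% of its exon bases with Rev1 and Eef2kmt 21.8% with Alg1, both on the opposite strand. Eef2k fell from 115, 97.3 and 117 CPM to 45.0, 68.7 and 55.3 CPM (log2 fold change -0.96, SE 0.17, adjusted p = 0.0020 in edgeR). Eef1b2 fell from 367, 446 and 545 CPM to 161, 301 and 242 CPM (log2 fold change -0.95, SE 0.30, adjusted p = 0.0379), and Eef1a1 from 7909, 8460 and 9441 CPM to 3666, 5566 and 5412 CPM (log2 fold change -0.82, SE 0.20, adjusted p = 0.0113). The other 5 that fell were Eif3f (-0.70), Eif2a (-0.65), Eif4h (-0.64), Eif1 (-0.64) and Eif4b (-0.54), so that 4 of the 8 were TOP factors. The counts of 5 and 8 became 2 and 9 without P4 cKO library 1, 3 and 5 without P4 cKO library 2, 2 and 4 without P4 cKO library 3, 8 and 8 without P7 cKO library 1, and 3 and 9 without P7 cKO library 2.

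Eef2k fell and Eif2c5 and Eif5a2 rose from P4 to P7 in both genotypes. Cell markers moved between the same samples. Germ cell markers summed to 397 and 489 CPM in P4 WT and 2249 in P7 WT (10 of 11 called higher), and to 314 to 342 in P4 cKO and 1564 to 1932 in P7 cKO (11 of 11 called higher). In cKO, peritubular and stromal markers went from 5431 to 7262 CPM at P4 to between 2653 and 3713 at P7, with 5 of 9 called lower, and in WT from 4712 and 5500 to 3646, with 2 of 9 called lower. Leydig sums went from 1525 to 1798 CPM over all P4 samples to between 927 and 1097 at P7, and endothelial sums from 272 to 341 to between 113 and 164. The part of cell makeup in the course of the translation factors was not tested. Both stage comparisons share samples with the genotype comparisons, and their values for the same gene are not independent. The test of the difference itself, the genotype by stage interaction, called 0 of 62 factors and 0 of all genes in edgeR. At an unadjusted p under 0.05, 4 factors had a higher genotype difference at P7 and 8 a lower one, and DESeq2 called 2 higher (Eef1a2 and Eef1aknmt) and 2 lower (Eif1a and Eif4g2). Eef1a2 had the smallest p, with cKO below WT at P4 and above it at P7 and an interaction of 3.41 (SE 0.67, adjusted p = 0.0626 in edgeR); its adjusted p was 0.0468 with the second P4 WT library left out and 0.0193 with the first P7 cKO library left out. Eif1a followed with -1.56 (SE 0.42, adjusted p = 0.0807) and Eif4g2 with -1.26 (SE 0.36, adjusted p = 0.0865).

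Shares within 5 pairs of paralogs were computed from reads per base of length, with no test. Eif4a2 made up 37.2% and 35.7% of the Eif4a2 and Eif4a1 pair in P4 WT and 28.4%, 28.9% and 31.2% in P4 cKO. At P7 it made up 40.6% in each WT library and 26.6%, 18.5% and 22.1% in cKO, so that cKO lay below WT at both stages. Eif4g3 made up 71.1% and 64.3% of its pair with Eif4g1 in P4 WT and 48.3%, 49.8% and 36.7% in P4 cKO, again without overlap. At P7 it made up 42.9% and 43.0% in WT and 39.7%, 32.1% and 40.7% in cKO, a smaller gap. Eif5a2 made up 3.72% and 5.94% of its pair with Eif5a in P4 WT, 2.29%, 2.98% and 2.85% in P4 cKO, 12.8% and 12.4% in P7 WT, and 7.66%, 4.42% and 5.58% in P7 cKO. In these 3 pairs, described in full because of their values, each cKO library held less of the first-named paralog than each WT library of its stage. The other pairs did not follow this course at both stages. Eif1b overlapped at P4 and was higher in cKO at P7: it made up 17.9% and 19.7% of its pair with Eif1 in P4 WT, 16.1%, 20.1% and 16.5% in P4 cKO, 28.3% and 27.3% in P7 WT and 36.7%, 30.3% and 30.5% in P7 cKO. Eef1a2, a minute part of its pair with Eef1a1, made up 0.0074% and 0.0067% in P4 WT against 0.0025%, 0.0020% and 0.0016% in P4 cKO. At P7 it ran the other way, with 0.0019% and 0.00036% in WT against 0.0063%, 0.0047% and 0.0044% in cKO. The members of the Eif4a and Eif5a pairs differ in GC content (40.2% for Eif4a2 and 46.3% for Eif4a1, 38.8% for Eif5a2 and 55.0% for Eif5a), whereas Eif4g3 (51.7%) and Eif4g1 (54.2%) are nearer to each other.

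**Figure D5:**
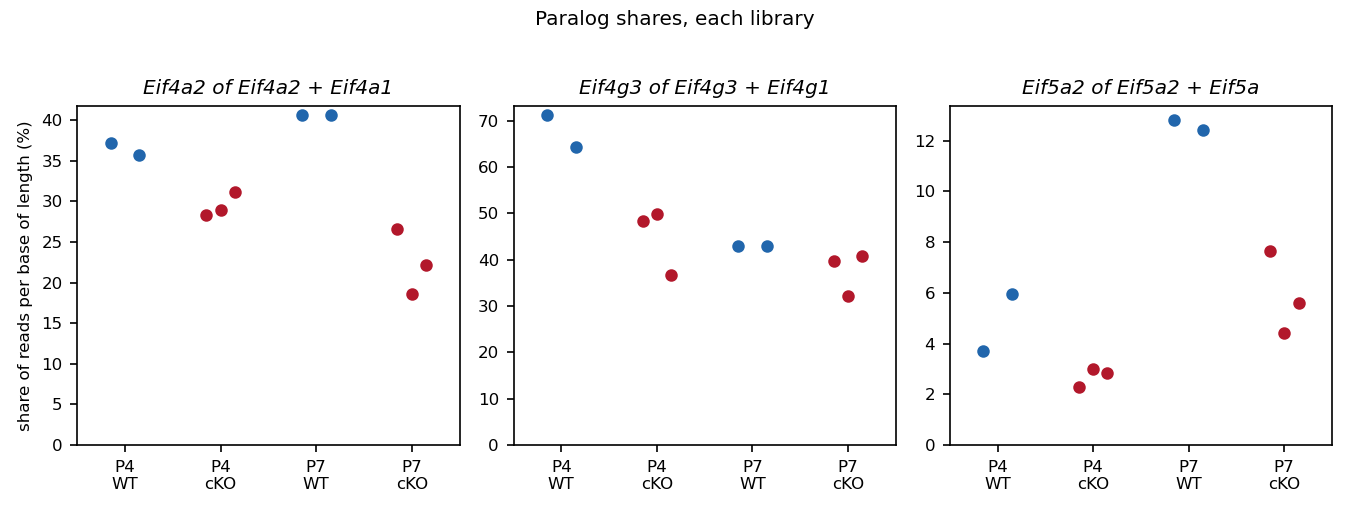
Share of the first-named paralog in the reads per base of length of its pair, in percent, for each of the 10 libraries (blue WT, red cKO), for Eif4a2 with Eif4a1, Eif4g3 with Eif4g1 and Eif5a2 with Eif5a. All cKO points lie below the WT points of the same stage. They lie closest for Eif5a2 at P4 (2.98% at most in cKO against 3.72% at least in WT). For Eif4g3 at P7 the values are 40.7% at most and 42.9% at least.

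Of the 48 tested genes in 6 lists that act on or beside these factors, 2 were called at P4 (4.17%, against 8.96% of all genes) and 10 at P7 (20.8%, against 17.0%). None of the 4 eIF2 kinase genes was called at either stage; their log2 fold changes spanned -0.59 to -0.01 (P4) and -0.35 to 0.01 (P7). Of 8 enzymes that make hypusine on eIF5A or diphthamide on eEF2, 2 rose at P4: Dohh, the hydroxylase of hypusine synthesis (log2 fold change 0.92, SE 0.19, adjusted p = 0.0226 in edgeR), and Dph3 (0.63, SE 0.18, adjusted p = 0.0480). At P7 the 2 that rose were Dohh (1.38, SE 0.26, adjusted p = 0.0091) and Dhps, the first enzyme of that pathway (0.87, SE 0.26, adjusted p = 0.0410). Of 9 mTORC1 genes 0 were called at P4, and at P7 2 rose, Rptor (0.71) and Akt1s1 (1.06), and 2 fell, Rheb (-1.04) and Rps6kb1 (-1.18). The 2 that rose had a GC content of 56.5% and 60.7%, and the 2 that fell 44.7% and 39.2%. Of 12 poly(A)-binding, cap and scanning regulators 0 were called at P4, and at P7 the eIF4E kinase gene Mknk2 rose (0.95) and Paip1 (-0.91) and Paip2 (-0.83) fell. Of 8 termination, recycling and rescue genes 0 were called at P4 and 1, Abce1, fell at P7 (-1.09). None of 7 mitochondrial initiation and elongation factor genes was called at either stage, with medians of -0.08 and 0.23. With offsets for length and GC content no gene of these lists was called at P7.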

How the data were processed

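Total RNA of mouse testis was sequenced from 10 TruSeq libraries, per the labels' protocols. The deposited table holds whole-number read counts per gene that the authors made, per the submitters' processing notes, with Trim Galore 0.6.10, STAR 2.7.11a, SAMtools 1.6 and featureCounts from Subread 2.0.6 on GRCm38 (mm10), with FastQC 0.12.1 and MultiQC 1.14 for quality. Strandedness, the treatment of multi-mapping reads and whether mates were counted singly were not given in the sources used here, so genes with near-identical copies, such as Eef1a1, and genes that overlap others (10 of the translation factors share exon bases) carry uncertain counts.

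Samples were grouped by their titles. The P7 WT libraries were summed to 1 sample, leaving 9 samples. All 18419 genes that passed filterByExpr were fitted in edgeR 4.0.16 (R 4.3.3) with TMM factors, 1 mean per group and the robust quasi-likelihood F test (5 residual degrees of freedom, common biological coefficient of variation 0.228). P-values were adjusted by Benjamini-Hochberg over all genes, with a threshold of 0.05, and each SE is the log2 fold change divided by the root of F. Levels across genes are CPM per kilobase of the table's exon length. Depth (28.8 to 41.8 M counts) bounds precision by counting error, mainly for Eef1a2, Eif2c5 and Eif4e1b.

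On simulated counts for 18419 genes, P4 recovered 39 of 100 genes changed by 1 log2 unit and 82 of 100 changed by 2 units (13 of 134 calls false), and P7 recovered 8 and 66 of 100 (5 of 79 calls false). The simulation changed no other genes and held no trend with length or GC content, unlike the data. Its recovery and false calls therefore do not speak for such trends or for wider changes. Alternatives were the 10 libraries kept separate, other scalings and filters, DESeq2 1.42.0, fits of only the compared libraries, a replicate block, offsets for length and GC content (mgcv 1.9.3, with GC from the longest GENCODE transcript, known for 67 of 67 members) and leaving out each library. Values were named by rule: every factor called for genotype, the 3 highest and 3 lowest calls of each stage comparison, and 20 factors whatever their result. The members and lists were chosen with earlier results of these data known.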

Additional observations from a re-analysis of the deposited data

How the results depend on the processing

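Higher and lower calls at P4, 12 and 0, became 20 and 1 with the 10 libraries kept separate, 4 and 2 with library totals, 20 and 2 in DESeq2, 21 and 1 with only the compared libraries, 7 and 0 with offsets for length and 4 and 0 with offsets for length and GC content. At P7 the 5 and 4 became 18 and 11, 11 and 3, 13 and 5, 0 and 0, 4 and 5, and 0 and 0 under the same alternatives in that order, and 9 and 4 with a minimum count of 50. From P4 to P7 in WT the 5 and 3 became 11 and 6 with separate libraries and 4 and 5 with offsets for length and GC content. In cKO the 5 and 8 became 8 and 12 with separate libraries, 8 and 4 with library totals, 8 and 11 in DESeq2, and 8 and 8 with offsets for length and GC content. The interaction, with 0 and 0, gave 3 and 5 with separate libraries, 1 and 0 without a filter, and 2 and 2 in DESeq2. Shares of all genes are not given for most of these counts, here or above. Whether the changes are particular to the translation factors therefore cannot be told. The share of all genes higher at P4 moved as well, from 4.84% in the main fit. It was 12.2% without P7 cKO library 1 and 1.18% with offsets for length and GC content. The cause of these changes was not tested.

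Leaving out each library in turn gave, for higher and lower calls, 0 to 26 and 0 to 2 at P4, 2 to 16 and 1 to 6 at P7, 2 to 10 and 1 to 6 from P4 to P7 in WT, 2 to 8 and 4 to 9 in cKO, and 0 to 1 and 0 to 3 for the interaction.

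Whether the replicate numbers pair the samples could not be decided. Same-numbered libraries of the 2 genotypes had correlations of their deviations of 0.40 and -0.20 at P4 and of 0.00 or nearly so at P7. The 2 WT libraries of a stage have mirrored deviations, so each correlation recurs with the opposite sign for the other WT library. At P7 the WT libraries also lay near the sampling noise of each other. With a replicate block on the 10 libraries the counts were 20 and 0 at P4, 18 and 13 at P7, 14 and 6 from P4 to P7 in WT, 8 and 12 in cKO, and 4 and 12 for the interaction, and Eif1 at P7 was 0.0312.

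The following values, none of them called in the main fit, changed sign. Some passed elsewhere: at P7, Eif5a2 in 4 of 20 alternatives, Eif4e in 2 and Eif2s1 in 1. Eif3e at P4 was -0.0461 with library totals and -0.0608 with offsets for length. Eif1 at P7 was 0.0011 with separate libraries, 0.0906 with library totals and 0.0157 with a minimum count of 50. At P7, offsets for length and GC content gave Eif2s1 0.30, Eif2s3x 0.32, Eif3e 0.51, Eif4e 0.11, Eif5a -0.18 and Eif5a2 0.0526, and offsets for length gave Eif4a1 -0.12 and Eef1a1 -0.0636. With libraries left out in turn, P4 values ran from -0.0290 to 0.55 for Eif4e, -0.13 to 1.49 for Eif4e1b, -0.0062 to 0.50 for Eif4g2 and -0.38 to 1.04 for Eif5a2, and Eif1 at P7 ran from -0.0926 to 0.0581.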
